A study of Homo sapiens with 4 samples.

Results

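The NBPF family was examined in NCI-H520, a long-established human line from a squamous carcinoma of the lung, labelled wild type. Its members here were 10 rows of the deposited gene count table, taken by symbol: NBPF26, NBPF1, NBPF3, NBPF8, NBPF9, NBPF10, NBPF11, NBPF12, NBPF14 and NBPF15. They are 10 of 28277 genes in the table and 10 of its 19 rows with an NBPF symbol. NBPF26 had drawn attention by its difference between the groups in these same libraries, so that difference and the copies' values beside it are given as a description and serve as no test.

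RNA sequencing compared cells exposed for 12 h to Hx1R8 at 10 µM (Hx1R8, 2 libraries) with cells that received ultrapure water (Vehicle, 2 libraries). All 4 libraries come from this single line, with serum at 15% in both groups. The series concerns self-association of the transcription factor SOX2 and drug resistance, and the sources used here do not describe the make-up of Hx1R8. Nothing in the labels says that the 2 libraries of a group came from separate cultures. P-values thus measure spread between these libraries, which may be technical and is mostly pooled over genes. The fit gave that pooled spread 36.9 degrees of freedom, against 2 from a gene's own libraries.

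NBPF stands for neuroblastoma breakpoint family, named after a gene broken by a chromosomal translocation in neuroblastoma. Its proteins carry repeats of the Olduvai domain, formerly called DUF1220, whose copies multiplied in the human lineage, and most of the genes lie in duplicated blocks on chromosome 1. Because the copies are so alike, a short read from one can fit several of them. The cellular function of most of these proteins is not well known.

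Total counts were 17259403 and 20920857 in Hx1R8 and 17483349 and 17352323 in Vehicle, and 14482 genes entered the test. The Vehicle libraries differed from each other more than any other pair, at a chi-square of 2.94 per gene. The closest pair was Hx1R8 replicate 1 with Vehicle replicate 1, at 1.48, against 1.61 for the 2 Hx1R8 libraries. Of 4 genes checked as squamous markers, SOX2 and KRT6A were well expressed, while KRT5 and TP63 were scarce. SOX2 was at 509.9 ± 17.4 CPM in Hx1R8 and 528 ± 18.7 CPM in Vehicle, and KRT6A at 17.5 ± 0.529 CPM in Hx1R8 and 19.8 ± 0.121 CPM in Vehicle (SD, n = 2 each). KRT5 was at 1.54 ± 0.528 CPM in Hx1R8 and 1.67 ± 0.339 CPM in Vehicle, and TP63 at 0.648 ± 0.0955 CPM in Hx1R8 and 0.431 ± 0.0443 CPM in Vehicle (SD, n = 2 each). Of 8 markers of immune cells, endothelium and fibroblasts, PTPRC, CD3E and PECAM1 had 0 reads in every library, and DCN and COL1A2 had at most 4. CD14 had 13 and 27 reads in Hx1R8, against 24 and 23 reads in Vehicle, and VWF had 11 and 7 in Hx1R8, against 15 and 9 in Vehicle. COL1A1, a collagen gene, had 126 and 171 reads in Hx1R8, against 144 and 141 reads in Vehicle. The part of other cell types in the results was not tested. CPM is a gene's count relative to the scaled total of its library.

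The first sequence shows why copies are hard to separate. It is a coding stretch of NBPF26 at chr1:120808629-120808728 (GRCh38, plus strand, exonic), found letter for letter in transcripts of 6 other members: NBPF8, NBPF9, NBPF11, NBPF12, NBPF14 and NBPF15. The sequences are GENCODE v29 transcript sequences, and a read lying wholly inside this stretch cannot tell these 7 genes apart.
NBPF26: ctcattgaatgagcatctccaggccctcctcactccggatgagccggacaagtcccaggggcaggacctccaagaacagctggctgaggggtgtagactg

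Other stretches differ by a single letter. The next one is found in NBPF26 alone, at chr1:120830470-120830569 (plus strand), yet NBPF9 at chr1:149058944-149059043 and NBPF14 at chr1:148534703-148534802 (both minus strand) each have 1 mismatch to it, shown as a capital.
NBPF26: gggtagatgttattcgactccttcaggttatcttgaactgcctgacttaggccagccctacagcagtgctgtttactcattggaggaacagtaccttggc
NBPF9: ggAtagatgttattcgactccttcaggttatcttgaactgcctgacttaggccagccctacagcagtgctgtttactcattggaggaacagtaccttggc
NBPF14: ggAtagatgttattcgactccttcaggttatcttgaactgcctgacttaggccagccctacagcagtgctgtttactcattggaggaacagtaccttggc

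The stretch of NBPF26 that stands farthest from the other members lies at chr1:120805584-120805683 (plus strand). The nearest counterparts of that stretch lie in NBPF10 at chr1:146138318-146138417 and NBPF14 at chr1:148589266-148589365 (both minus strand), and in NBPF3 at chr1:21468716-21468815 (plus strand). Each has 7 mismatches, again in capitals, and NBPF14 has the letters shown for NBPF10.
NBPF26: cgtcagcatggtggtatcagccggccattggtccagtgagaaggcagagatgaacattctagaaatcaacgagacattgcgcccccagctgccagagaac
NBPF10: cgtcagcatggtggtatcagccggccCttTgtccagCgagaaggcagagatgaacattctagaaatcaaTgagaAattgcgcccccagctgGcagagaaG
NBPF3: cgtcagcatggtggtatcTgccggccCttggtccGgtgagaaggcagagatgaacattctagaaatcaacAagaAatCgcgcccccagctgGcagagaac

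Of 1353 coding windows of 100 bases within an exon of NBPF26, 43.9% occurred in no other gene of GENCODE v29. Of those, 54.9% lay within 1 mismatch and 90.4% within 3 mismatches of a coding window of another member. NBPF8 has no coding annotation in that release and was not part of the mismatch count.

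Over all exon windows, NBPF26 was among the members with much shared sequence. Of its distinct 100-base windows, 43.1% occurred in no other gene, 21.4% at 50 bases and 61.7% at 150 bases. These figures cover the 79.1% of its deposited exon bases that GENCODE v29 transcripts hold, and the sources used here give no read length. Its closest copy in these transcripts was NBPF9, which held 32.9% of its windows, followed by NBPF14 with 29.7%, NBPF10 with 28.9% and NBPF8 with 28.4%. They hold 62.6% of the deposited exon bases of NBPF8, against 100% for NBPF9, NBPF10 and NBPF14, so the share of NBPF8 may be too low.

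The members ranged widely in how much sequence was their own. NBPF3 had 97.2% and NBPF1 82.1% of 100-base windows in no other gene, and these 2 lie apart from the rest on chromosome 1, at 21440137 to 21485005 and at 16562323 to 16613564. NBPF10 had the least, 18.1%, and NBPF14 28.1%. NBPF10 shared 65.2% of its windows with NBPF14, and NBPF11 shared 41.4% with NBPF12.

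**Figure D1:**
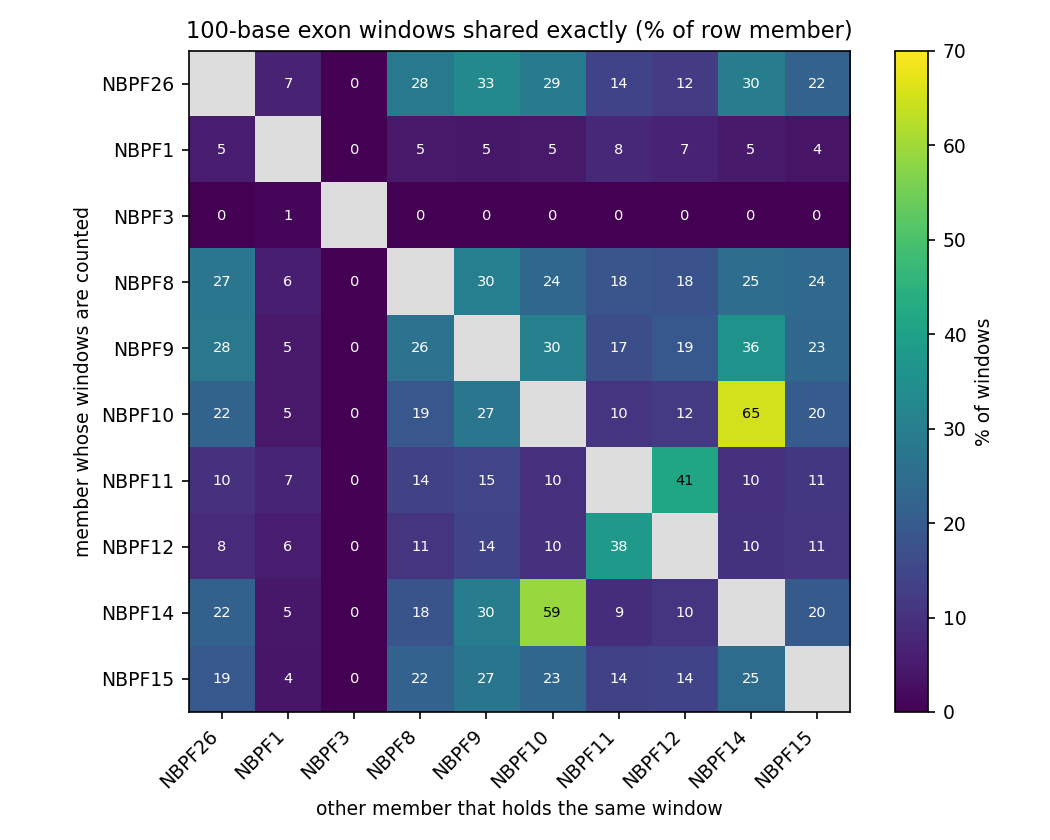
Percent of each row member's distinct 100-base exon windows that occur exactly in each column member (grey, the member itself). Windows come from GENCODE v29 transcripts on the row member's deposited exons. They were sought in whole transcripts of the column member, also outside its deposited exons. NBPF10 with NBPF14 and NBPF11 with NBPF12 stand out as pairs, at 65.2% and 41.4%, and the NBPF3 row and column are nearly empty.

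The deposited gene models bear on what each row counts. NBPF26 (chromosome 1, 120805556 to 120842215, plus strand) has 5668 exon bases in 30 exon blocks, and no base is shared with another row. In RefSeq's GRCh38.p14 annotation the gene begins 81611 bases farther upstream, so the deposited row covers its downstream part only. For NBPF9 (149054033 to 149082311, minus strand) the RefSeq start likewise lies 21240 bases upstream of the deposited model. NBPF8 (120415027 to 120469670, plus strand) shares 41 of 8018 exon bases with LOC100996724, and 62.6% of its exon bases are in GENCODE v29 transcripts. The other members share no exon base with any other row.

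Upstream sequence divides the members in another way. RefSeq's promoter table holds 9 of the 10 members, all but NBPF26, whose promoter was thus not compared. The 250 bases before the start were compared without gaps. NBPF8 and NBPF15 were 99.6% identical over 240 bases, NBPF8 and NBPF9 98.8% over 250, NBPF10 and NBPF14 99.5% over 215, and NBPF11 and NBPF12 95.7% over 211. NBPF1 and NBPF3 were 69.8% identical over 225 bases. The trio of near-identical promoters is shown because its members differ in level, by a stretch upstream of the RefSeq starts on GRCh38.p14. It lies at chr1:120414877-120414976 (plus strand) for NBPF8, chr1:149103602-149103701 (minus strand) for NBPF9 and chr1:144461710-144461809 (minus strand) for NBPF15, with the mismatch to NBPF8 in capitals.
NBPF8: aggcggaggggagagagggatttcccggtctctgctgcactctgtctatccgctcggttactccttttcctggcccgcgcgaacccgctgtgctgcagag
NBPF9: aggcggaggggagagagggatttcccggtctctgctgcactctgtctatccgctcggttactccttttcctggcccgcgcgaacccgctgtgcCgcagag
NBPF15: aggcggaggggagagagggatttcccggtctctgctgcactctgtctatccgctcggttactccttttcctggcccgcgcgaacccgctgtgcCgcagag

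All 10 members were expressed and passed the filter on low counts. Levels are compared between members as CPM per kilobase of deposited exon. NBPF8 was highest, at 12.6 ± 1.96 CPM per kilobase in Hx1R8 and 13.3 ± 0.149 in Vehicle (SD, n = 2 each). NBPF15 was at 6.09 ± 0.399 CPM per kilobase in Hx1R8 and 6.20 ± 0.0173 in Vehicle, and NBPF9 at 4.94 ± 0.258 in Hx1R8 and 5.45 ± 0.384 in Vehicle (SD, n = 2 each). Thus the trio with near-identical promoters spanned levels that differed beyond their spread in Vehicle, although the starts of NBPF9 and NBPF15 lie outside their deposited models.

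NBPF26 stood at 6.21 ± 0.540 CPM per kilobase in Hx1R8 and 4.82 ± 0.341 in Vehicle (SD, n = 2 each). NBPF1, studied as a candidate tumour suppressor in neuroblastoma, was at 5.23 ± 0.133 CPM per kilobase in Hx1R8 and 5.13 ± 0.340 in Vehicle (SD, n = 2 each). In Vehicle the order was NBPF8, NBPF15, NBPF9, NBPF1 and NBPF26, and within the last 3 the neighbours did not differ beyond their spread. In Hx1R8 NBPF26 came after NBPF8, and its lead over NBPF15 lay within the spread.

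Below these came NBPF11 at 3.36 ± 0.176 CPM per kilobase in Hx1R8 and 3.24 ± 0.00559 in Vehicle, and NBPF12 at 3.12 ± 0.0877 in Hx1R8 and 3.18 ± 0.455 in Vehicle, which did not differ from each other beyond their spread in Vehicle (SD, n = 2 each). NBPF3 was at 1.28 ± 0.0756 CPM per kilobase in Hx1R8 and 1.20 ± 0.0188 in Vehicle (SD, n = 2 each). NBPF14 was at 0.808 ± 0.00942 in Hx1R8 and 0.798 ± 0.0227 in Vehicle, and NBPF10 was lowest at 0.239 ± 0.0274 in Hx1R8 and 0.229 ± 0.00189 in Vehicle (SD, n = 2 each). The lowest pair was also the one with the least sequence of its own, whereas NBPF3, with the most, stood only above these 2. The part of shared sequence in these levels was not tested.

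**Figure D2:**
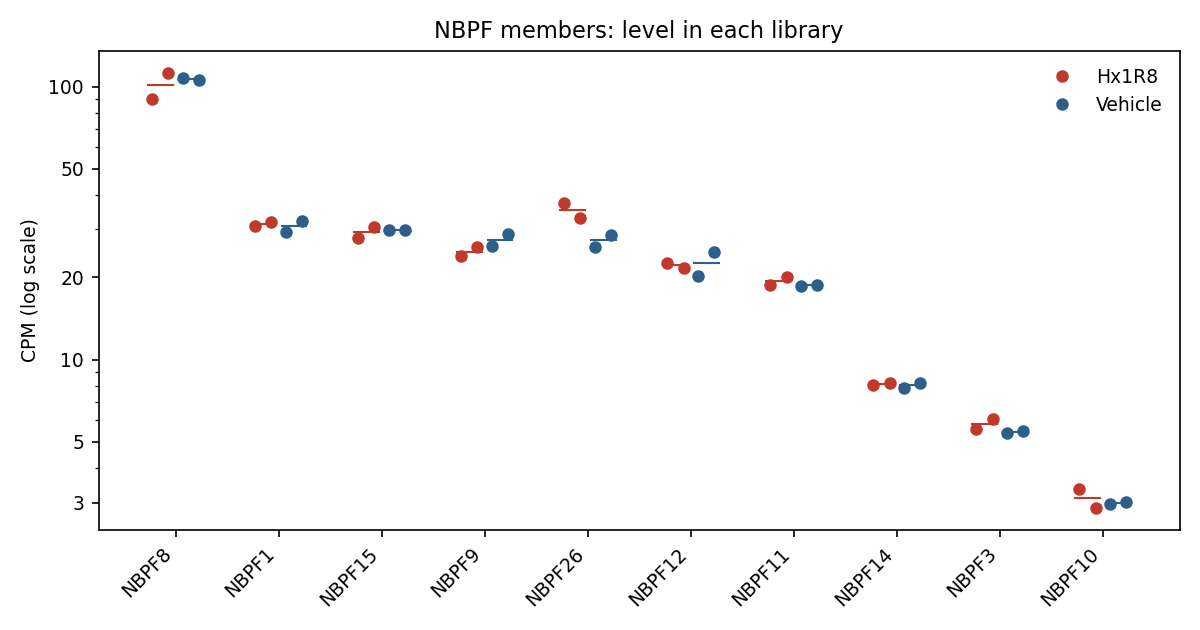
CPM on a log scale of the 10 members in the 2 Hx1R8 (red) and 2 Vehicle (blue) libraries, ordered by the Vehicle mean. Points are libraries and bars are group means. NBPF26 shows its Hx1R8 points, 37.4 and 33.0 CPM, above its Vehicle points, 25.9 and 28.7 CPM, while most other members overlap.

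NBPF26 was higher in Hx1R8 than in Vehicle. It had 643 and 692 reads in Hx1R8, against 454 and 496 reads in Vehicle. That is 37.4 and 33.0 CPM in Hx1R8, against 25.9 and 28.7 CPM in Vehicle. Both Hx1R8 libraries lay above both Vehicle libraries, with replicate 1 of Hx1R8 the highest of the 4. The fitted fold was 1.28 (95% interval 1.15 to 1.43), a log2 fold change of 0.36 (SE 0.08). That interval and SE, and the p below, rest mostly on spread pooled over genes. For NBPF26 itself the libraries differed by 0.178 on the log2 scale within Hx1R8 and by 0.144 within Vehicle.

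By edgeR's quasi-likelihood test the unadjusted p of NBPF26 was 3.72e-05, the 4th smallest of 14482, and its adjusted p was 0.128. It thus fell short of the threshold of 0.05, and by fold it ranked 391 from the top. These values are the ones that brought the gene forward. With all libraries kept, DESeq2's Wald test put NBPF26 far from the threshold at a log2 fold change of 0.365. How near it came thus depended on the method. Within edgeR the call depended on single libraries, with the lone library assumed to vary like the other group. It was made without Hx1R8 replicate 2 (log2 fold change 0.45, adjusted p = 0.042 by edgeR) and without Vehicle replicate 2 (0.435, adjusted p = 0.000509). It was not made without Hx1R8 replicate 1 (0.28, adjusted p = 1 after rounding) or without Vehicle replicate 1 (0.29, adjusted p = 0.0761).

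None of the 10 members passed the adjusted threshold, where 0.0207% of all tested genes did. At an unadjusted p under 0.05 there was 1 member, NBPF26, against 3.39% of all genes tested. Both Hx1R8 libraries lay above both Vehicle libraries for 2 members, NBPF26 and NBPF3, against 14.7% of tested genes, and below for 1, NBPF9, against 15.2%. Because NBPF26 was chosen on this contrast, nothing is read from these counts.

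The 9 other members were spread closely around no change. Their log2 fold changes ran from -0.14 to 0.10, with 5 above 0 and 4 below and a median of 0.018, against a median of -0.0018 over all tested genes. All 9 had 95% intervals within 1.5-fold of no change, by a spread mostly pooled over genes. For 7 of the 9 the interval ended below the NBPF26 value of 0.36, and the exceptions were NBPF3 and NBPF10. For 4 of the 9, NBPF3, NBPF10, NBPF11 and NBPF14, the interval overlapped that of NBPF26, which ran from 0.20 to 0.52.

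NBPF9, the copy that shares most windows with NBPF26 in GENCODE v29 transcripts, had the lowest value with all libraries in the fit. It had 23.9 and 25.8 CPM in Hx1R8, against 26.1 and 28.8 CPM in Vehicle. Both Hx1R8 libraries lay below both Vehicle libraries, by a margin narrower than the spread within either group. NBPF9 did not pass the threshold (log2 fold change -0.14, with SE 0.08 and an adjusted p of 0.9999 by edgeR). With 1 library left out its value ran from -0.208 to -0.0625, which was the value without Vehicle replicate 2. NBPF8 was lower than NBPF9 in that setting and without Hx1R8 replicate 2.

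NBPF8, the most abundant member, had 90.3 and 113 CPM in Hx1R8, against 107 and 106 CPM in Vehicle. The Hx1R8 libraries lay on opposite sides of the Vehicle pair, replicate 1 below and replicate 2 above. The log2 fold change was -0.06 (SE 0.06), and it turned to 0.08 without Hx1R8 replicate 1. That SE rests mostly on pooled spread, while the 2 Hx1R8 libraries differed by 0.318 on the log2 scale for NBPF8.

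NBPF12 had 22.6 and 21.7 CPM in Hx1R8, against 20.3 and 24.9 CPM in Vehicle, so that both Hx1R8 values fell between the Vehicle values. NBPF11, its partner by sequence, had 18.7 and 20.1 CPM in Hx1R8, against 18.7 and 18.7 CPM in Vehicle. NBPF3 had 5.58 and 6.06 CPM in Hx1R8, against 5.37 and 5.49 CPM in Vehicle. Its groups did not overlap, by a margin well within its 95% interval, which ran from -0.20 to 0.41 on the log2 scale.

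For NBPF1 and NBPF15 the libraries interleaved. NBPF1 had 30.8 and 32.0 CPM in Hx1R8, against 29.4 and 32.3 CPM in Vehicle. NBPF15 had 27.9 and 30.6 CPM in Hx1R8, against 29.7 and 29.8 CPM in Vehicle.

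NBPF10 and NBPF14, the most alike pair, were scarce and close between groups. NBPF10 had 58 and 60 reads in Hx1R8, against 52 and 52 reads in Vehicle, and NBPF14 had 139 and 172 reads in Hx1R8, against 138 and 142 reads in Vehicle. Their log2 fold changes were 0.05 (SE 0.20) and 0.02 (SE 0.13).

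**Figure D3:**
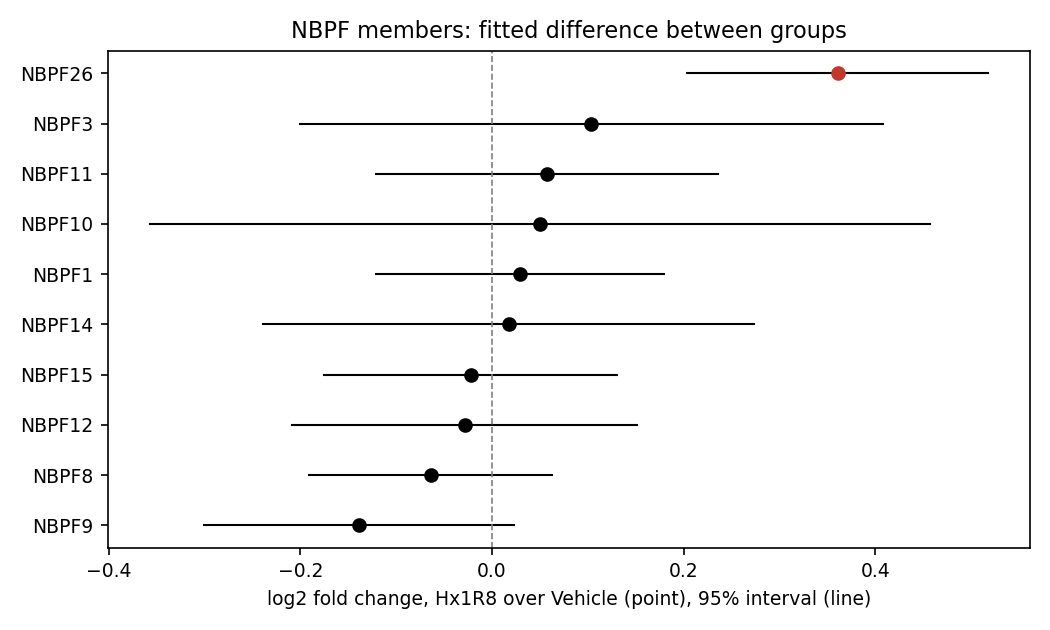
Fitted log2 fold change of Hx1R8 over Vehicle (points) with 95% interval (lines) for the 10 members, from edgeR; NBPF26 in red. NBPF26 at 0.36 is the one member whose interval does not reach 0, and the other 9 run from -0.14 to 0.10.

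Set against its copies within each library, a measure that does not depend on scaling, NBPF26 was higher in Hx1R8. This share rests on the same NBPF26 reads by which the gene was chosen and is no separate observation. NBPF26 took 13.9% (95% Wilson interval 12.9% to 14.9%) and 11.3% (10.5% to 12.1%) of the reads of the 10 members in Hx1R8. In Vehicle it took 9.48% (8.69% to 10.3%) and 10.0% (9.24% to 10.9%). The groups did not overlap, and the mean difference was 2.83 percentage points, though the interval of Hx1R8 replicate 2 met that of Vehicle replicate 2. The difference was 1.51 percentage points without Hx1R8 replicate 1 and 4.14 without Hx1R8 replicate 2. These intervals cover counting error only.

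The ratio of NBPF26 to each of the 9 other members was higher in both Hx1R8 libraries than in both Vehicle libraries. Against NBPF9 it was 1.56 and 1.28 in Hx1R8 and 0.996 and 0.996 in Vehicle. Against NBPF8 it was 0.414 and 0.294 in Hx1R8 and 0.242 and 0.272 in Vehicle, where Hx1R8 replicate 2 stood closer to both Vehicle libraries than to its own partner. The same held for the ratios to NBPF1, NBPF3, NBPF11 and NBPF15. Against NBPF3, which shares hardly any windows with it, the ratio was 6.70 and 5.45 in Hx1R8 and 4.83 and 5.22 in Vehicle. All 9 ratios share the NBPF26 reads and are no separate observations.

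The sum over the family did not differ between the groups beyond the spread of the libraries. The 10 members together had 269 and 293 CPM in Hx1R8, against 274 and 285 CPM in Vehicle, with means of 281 ± 17.2 CPM in Hx1R8 and 279.5 ± 8.40 CPM in Vehicle (SD, n = 2 each). The Hx1R8 libraries lay outside the Vehicle pair on both sides. NBPF26 was 7.88 CPM higher in Hx1R8 than in Vehicle by the group means, and the sum of the 9 other members was 6.65 CPM lower (Hx1R8 minus Vehicle -6.65 CPM). That sum was 231 and 260 CPM in Hx1R8, against 248 and 257 CPM in Vehicle. The 2 Hx1R8 values were farther apart than 6.65 CPM, so the difference in the sum lay within the spread between replicates. For the 10 members the SD in Hx1R8, 17.2 CPM, likewise exceeded the 7.88 CPM of NBPF26. That sum could therefore not resolve a difference of this size.

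NBPF26 was also summed with single genes, chosen after values were seen. With NOTCH2NLR, the partial NOTCH2 copy upstream of it, it came to 50.5 and 44.3 CPM in Hx1R8, against 37.5 and 42.0 CPM in Vehicle, and the groups stayed apart at a ratio of means of 1.19. With NBPF9 it came to 61.3 and 58.8 CPM in Hx1R8, against 52.0 and 57.5 CPM in Vehicle, and the groups stayed apart by a narrower margin, at a ratio of means of 1.10. With NBPF8 it came to 128 and 146 CPM in Hx1R8, against 133 and 134 CPM in Vehicle, and the groups overlapped. NBPF8 alone differed by more CPM between its Hx1R8 libraries than NBPF26 did between the groups. In Hx1R8 replicate 1 NBPF26 was at its highest and NBPF8 at its lowest of the 4 libraries. Whether reads moved between copies was not tested, since the counts do not say where on a gene a read fell.

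**Figure D4:**
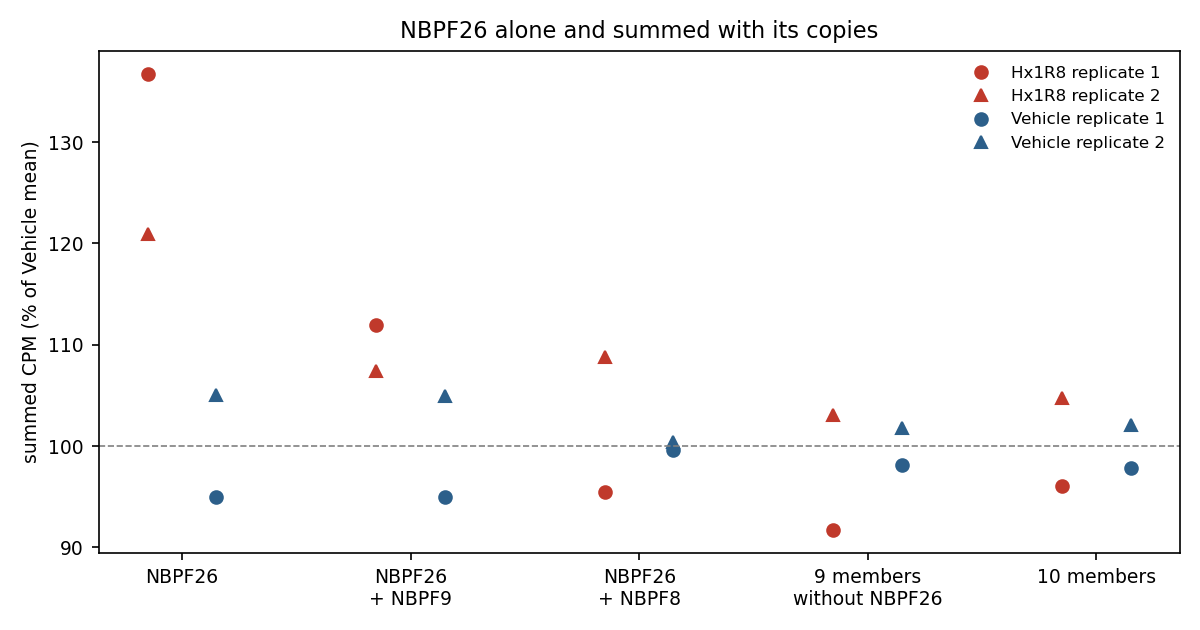
Summed CPM as a percent of the Vehicle mean, for NBPF26 alone, with NBPF9, with NBPF8, for the 9 other members and for all 10; red Hx1R8, blue Vehicle, circles replicate 1, triangles replicate 2. The Hx1R8 points stand above the Vehicle points for NBPF26 alone and with NBPF9, and lie on both sides of 100% for the other sums.

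Differences between libraries of the same group were large for some members. For NBPF26 they entered the p by which it was chosen, so its values here are a description too. The 2 Hx1R8 libraries differed by 0.318 on the log2 scale for NBPF8. Of 1441 tested genes within 25% of its mean CPM, 0.0694% differed more, and their median was 0.040. In Vehicle NBPF8 differed by 0.023, below the median of 0.068.

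NBPF12 showed the reverse, at 0.293 between the Vehicle libraries, where 2.82% of 1527 genes of like level differed more, and 0.057 between the Hx1R8 libraries. NBPF26 differed by 0.178 between the Hx1R8 libraries and by 0.144 between the Vehicle libraries, against medians of 0.062 and 0.085 in 1740 genes of like level. Of these genes 7.24% differed more in Hx1R8 and 24.2% in Vehicle. The NBPF26 libraries within a group were thus farther apart than those of the median gene of its level.

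**Figure D5:**
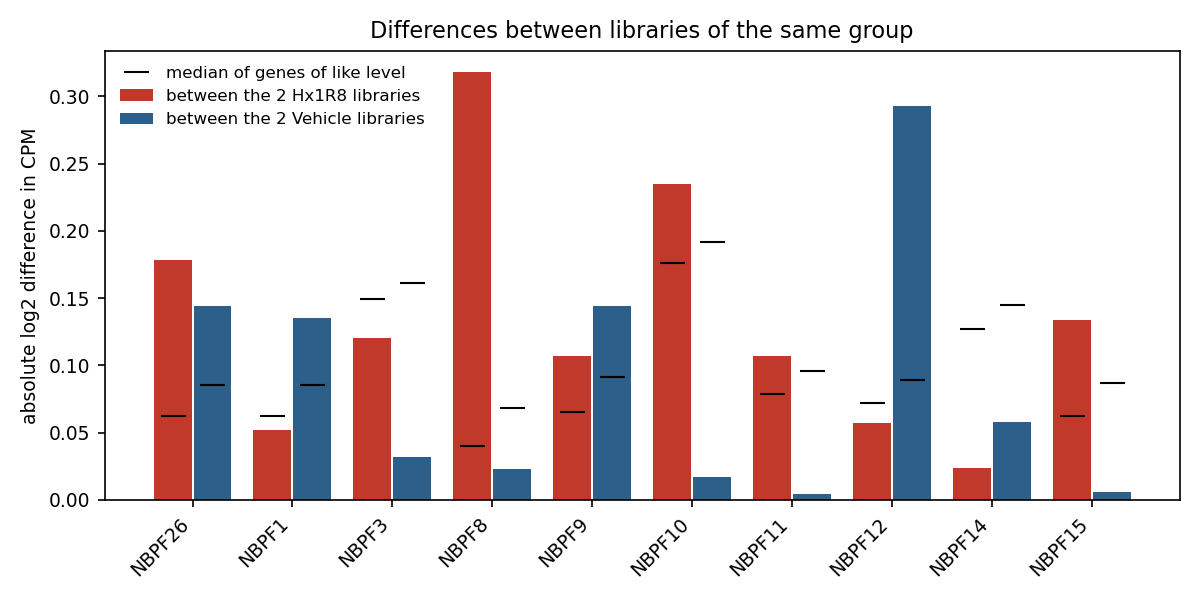
Absolute log2 difference in CPM between the 2 Hx1R8 libraries (red) and between the 2 Vehicle libraries (blue) for each member; black marks give the median of tested genes within 25% of the member's mean CPM. NBPF8 reaches 0.318 in Hx1R8 and NBPF12 0.293 in Vehicle, above their marks of 0.040 and 0.089.

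Of the 9 further NBPF rows, 3 were tested and none was called, against 0.0207% of all tested genes. NBPF19 was at 11.9 ± 0.383 CPM in Hx1R8 and 12.0 ± 0.952 CPM in Vehicle, NBPF20 at 4.65 ± 0.570 CPM in Hx1R8 and 4.80 ± 0.0803 CPM in Vehicle, and NBPF25P at 3.34 ± 0.204 CPM in Hx1R8 and 3.33 ± 0.623 CPM in Vehicle (SD, n = 2 each). The other 6 rows had at most 2 reads in a library, and 4 of them, NBPF4, NBPF6, NBPF18P and NBPF22P, had none.

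NOTCH2NLR, a partial copy of the receptor gene NOTCH2, ends 11667 bases before the deposited NBPF26 row on the same strand, and RefSeq's longer NBPF26 model spans it. It is named for this position. It had 13.2 and 11.3 CPM in Hx1R8, against 11.6 and 13.3 CPM in Vehicle. The groups overlapped, and the log2 fold change was -0.03 (SE 0.11), with a 95% interval from -0.25 to 0.19 that ended below the NBPF26 value.

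Among 26 genes of other families duplicated alongside NBPF genes or in similar recent duplications, 21 were tested. None was called, where 0.0207% of all tested genes were, so nothing is read from that. Of the 21, 13 were above 0 and 8 below, where 48.9% of all tested genes were above. Their median log2 fold change was 0.015. ARHGAP11A was at 139 CPM in Hx1R8 and 138 CPM in Vehicle, NOTCH2 at 136 CPM in both, and SRGAP2, which regulates neuronal migration, at 120 CPM in Hx1R8 and 125 CPM in Vehicle. Sequence shared within these families was not measured. SRGAP2B, a partial copy of SRGAP2, had the smallest unadjusted p, with 39.5 and 41.9 CPM in Hx1R8, against 35.7 and 37.8 CPM in Vehicle (log2 fold change 0.15, SE 0.07, adjusted p = 0.9999 by edgeR). GPR89B, a Golgi pH regulator gene, came next at -0.14 (SE 0.13).

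A list of 17 genes near the main NBPF cluster was chosen as lying outside its duplicated families, without a check of their copy number. Of these 14 were tested, with 7 above and 7 below 0, where 48.9% of all tested genes were above. None was called, against 0.0207% of all tested genes. SEC22B, a vesicle fusion protein gene, was at 211 CPM in Hx1R8 and 209 CPM in Vehicle. RBM8A, of the exon junction complex, was at 177 CPM in Hx1R8 and 180.1 CPM in Vehicle, and TXNIP, a thioredoxin inhibitor gene, at 139 CPM in Hx1R8 and 142 CPM in Vehicle. The integrin gene ITGA10 had the smallest unadjusted p, with 10 and 14 reads in Hx1R8, against 18 and 20 reads in Vehicle (log2 fold change -0.79, SE 0.37, adjusted p = 0.9999 by edgeR).

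By Euclidean distance over the 4 centred log2 CPM values, the 5 genes most like NBPF26 among 14472 were ENDOG, HTR2C, DDN-AS1, PPP1R3G and LOC101928445, at distances of 0.013 to 0.066. ENDOG, a mitochondrial nuclease gene, had 6.91 and 6.06 CPM in Hx1R8, against 4.74 and 5.26 CPM in Vehicle. With 4 libraries such likeness rests on very few values, and none of the 5 passed the adjusted threshold. The nearest family member was NBPF10 at 0.325, and the farthest were NBPF9 at 0.545 and NBPF8 at 0.577.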

How the data were processed

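The authors deposited raw counts per gene, 1 column per library, with exon coordinates, strand and exon length per the file headers. Alignment used STAR 2.7.9 and hg38, per the submitters' processing notes. The sources used here name no counting tool, annotation, strand setting or handling of reads that fit several genes. Where such reads were left out, members with little sequence of their own would be counted low. Libraries were made from 1.5 µg of total RNA, per the labels' protocols. A broken row of 2 lines without reads was left out, and rows naming no gene held 0 reads.

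Counts of all 28277 genes entered edgeR 4.0.16 (R 4.3.3) and its quasi-likelihood test (TMM, filterByExpr, group as the only term, two-sided, Benjamini-Hochberg over 14482 genes, threshold 0.05). CPM used TMM-scaled library sizes. A floor of 3 counts was 0.143 to 0.174 CPM. Exact permutation of 2 against 2 cannot go below p = 0.333. Alternatives used DESeq2 1.42.0, limma 3.58.1, other factors and filters, a replicate block and each library left out. The test was checked on simulated counts. No libraries agreed within sampling noise.

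Shared windows of 50, 100 and 150 bases were counted in GENCODE v29 transcripts, on both strands. Promoters came from RefSeq (GRCh38.p14), 9 of 10 matched, with no entry for NBPF26. All members and further NBPF rows were described. Of each neighbour list the 3 most abundant genes and the 2 with the smallest unadjusted p were named, and the 5 genes nearest to NBPF26. The values of 1 gene this rule took are not reported here. The members and lists were chosen with earlier results of these data known, and the pairings of NBPF26 with NBPF8, NBPF9 and NOTCH2NLR after values were seen.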

Additional observations from a re-analysis of the deposited data

How the results depend on the processing

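The log2 fold change of NBPF26 was 0.358 to 0.365 over the 7 alternatives that kept all libraries. Their adjusted p ran from 0.118 (edgeR, at least 1 CPM in 2 libraries) upwards, with no call. The highest came from DESeq2's Wald test, far from the threshold at a log2 fold change of 0.365. How near NBPF26 came to the threshold thus depended on the method. Leaving out 1 library gave 0.276 to 0.451, with adjusted p from 0.000509 to 1 and calls without Hx1R8 replicate 2 or Vehicle replicate 2. The same settings gave 2 to 41 genes higher and 1 to 38 lower, against 2 and 1 with all libraries, and DESeq2 gave 1 higher. No other member was called in any setting. With 1 library left out the sign turned, with the cause not tested, for NBPF1 (-0.0368 to 0.100), NBPF8 (-0.238 to 0.082), NBPF10 (-0.0604 to 0.172), NBPF11 (-0.000732 to 0.108), NBPF12 (-0.168 to 0.127), NBPF14 (-0.0112 to 0.0488) and NBPF15 (-0.095 to 0.0404). For NBPF12 the positive values were 0.127 without Vehicle replicate 2 and 0.00159 without Hx1R8 replicate 2. The share difference of NBPF26 was 1.51 to 4.14 percentage points with 1 library left out and 2.64 over all NBPF rows. The log2 ratio of the family sum was 0.0063, and ran from -0.0575 to 0.0674 with 1 library left out. With the replicate number as a block, NBPF26 was at 0.361 (adjusted p = 0.452), with 2 genes higher and 1 lower. The number alone links these samples: deviations of equal replicate number had a correlation of 0.033 over genes. Depth limits NBPF10, with 52 to 60 reads in a library.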
